A study of Homo sapiens with 10 samples.

Results

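The 10 genes of the NF-kB subunits and their inhibitors were examined in the accessible chromatin of MDA-MB-231 cells, an established line of human triple-negative breast cancer. Accessibility was mapped by ATAC-seq, an assay whose transposase, Tn5, inserts sequencing adapters into open DNA. The genes are NFKB1, NFKB2, RELA, RELB and REL, which encode the subunits, and NFKBIA, NFKBIB, NFKBIE, NFKBIZ and TNFAIP3, which encode inhibitors and feedback regulators. They were chosen by name, 10 of the 19974 protein-coding genes considered. Their peaks are the rows tied to a gene by its Ensembl identifier together with the rows that overlap its span on hg38, which gave 53 of 161934 peaks. The study comprised 5 ARID1A knockout and 5 control libraries of the same line, and addresses what the loss of ARID1A, a subunit of the SWI/SNF remodelling complex, does to accessibility. How the knockout was made, and whether it is a single clone, is not given in the sources used here. The peak list ties no peak to a library and has no value for any of them, so knockout and control are not compared, the ARID1A label cannot be checked, and no value here carries a replicate error.

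NF-kB is a family of dimeric transcription factors that share a Rel homology domain, with which they bind DNA and each other. In resting cells inhibitors of the I-kappa-B family hold most dimers in the cytoplasm. Signals from receptors of tumour necrosis factor, interleukin-1 and microbial products activate the I-kappa-B kinase, which marks the inhibitors for degradation, and the freed dimers bind kappa-B sites in promoters and enhancers. Several genes of the family, NFKBIA and TNFAIP3 above all, are themselves targets of NF-kB, which closes feedback loops. High basal NF-kB activity is well known in basal-like and triple-negative breast cancer lines.

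All 10 of 10 members had a start peak, defined as a peak within 1000 bases of the outermost 5' boundary of the RefSeq gene. Of 18768 protein-coding genes with a determined strand, 74.1% had one. A window of 3000 bases, which can only add genes, held a peak at the same 10 members and at 82.1% of protein-coding genes, and with peaks of at least the median length of 539 bases all 10 had one, against 68.5%. No test was made of these shares. The start peaks ran from 909 bases at NFKBIZ to 2006 bases at NFKB2. Their median was 1527 bases, against 1257 bases over the 13898 genes with a start peak, whose quartiles were 959 and 1576 bases. NFKB2, NFKB1 (1965 bases), TNFAIP3 (1898 bases), REL (1805 bases) and NFKBIA (1602 bases) lay above that upper quartile. RELA (1452 bases), NFKBIB (1389 bases), NFKBIE (1388 bases) and RELB (1323 bases) lay between the median and the upper quartile, and NFKBIZ lay below the lower quartile. Of all genes with a start peak, 8.06% had one at least as long as that of NFKB2, and 78.6% one at least as long as that of NFKBIZ. A peak's length depends on read depth, on the settings of the peak caller and on how peaks of the libraries were joined, none of which the list records.

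**Figure D1:**
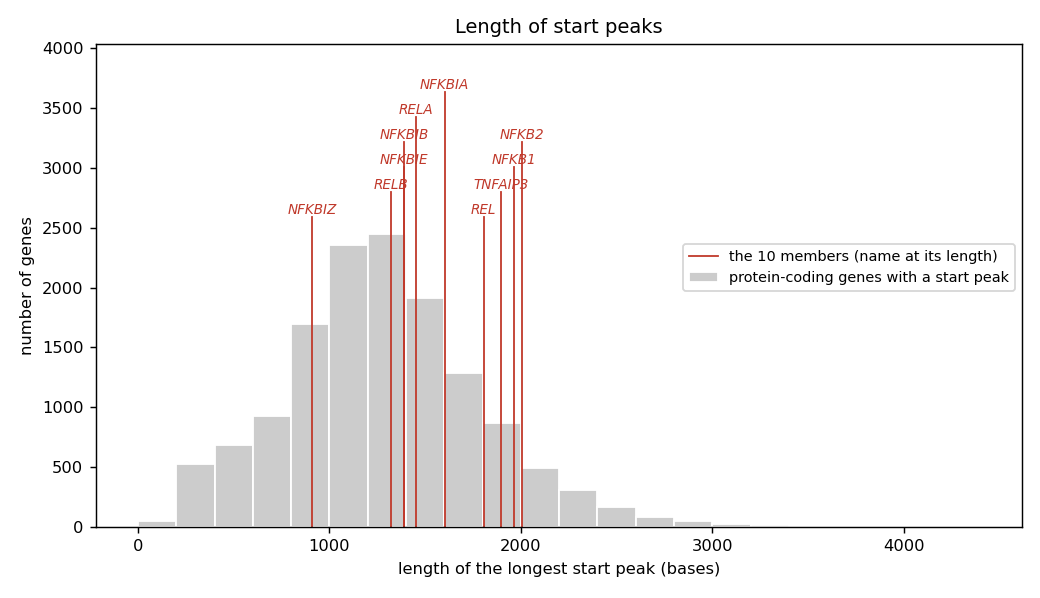
Length in bases of the longest start peak of each of the 10 members (red lines, each with its name) over the number of protein-coding genes with a start peak in bins of 200 bases (grey bars). NFKB2 stands at 2006 bases and NFKBIZ, the shortest member, at 909 bases.

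By position, the 53 peaks comprised 10 at the outermost starts, 4 at other transcript starts inside 3 of the genes, 18 elsewhere inside 7 genes, 7 in upstream flanks of 3 genes and 14 in downstream flanks of 4 genes. The median length was 637.5 bases at the alternative starts, 516 bases inside the genes, and 497 and 542 bases in the upstream and downstream flanks. The medians inside the genes and in the flanks were near the median of 539 bases over all peaks of the list. Outside the promoter class the median was 547 bases for the members' peaks and 500 bases for all peaks. In the list's own classes 20 of the 53 were promoter peaks (37.7%, 95% Wilson interval 25.9 to 51.2), against 30.4% of all peaks. Introns held 8 (15.1%) of the members' peaks and 34.1% of all peaks, and distal intergenic sequence 18 (34.0%) and 29.6%. The interval reflects the number of peaks counted and no variation between libraries.

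**Figure D2:**
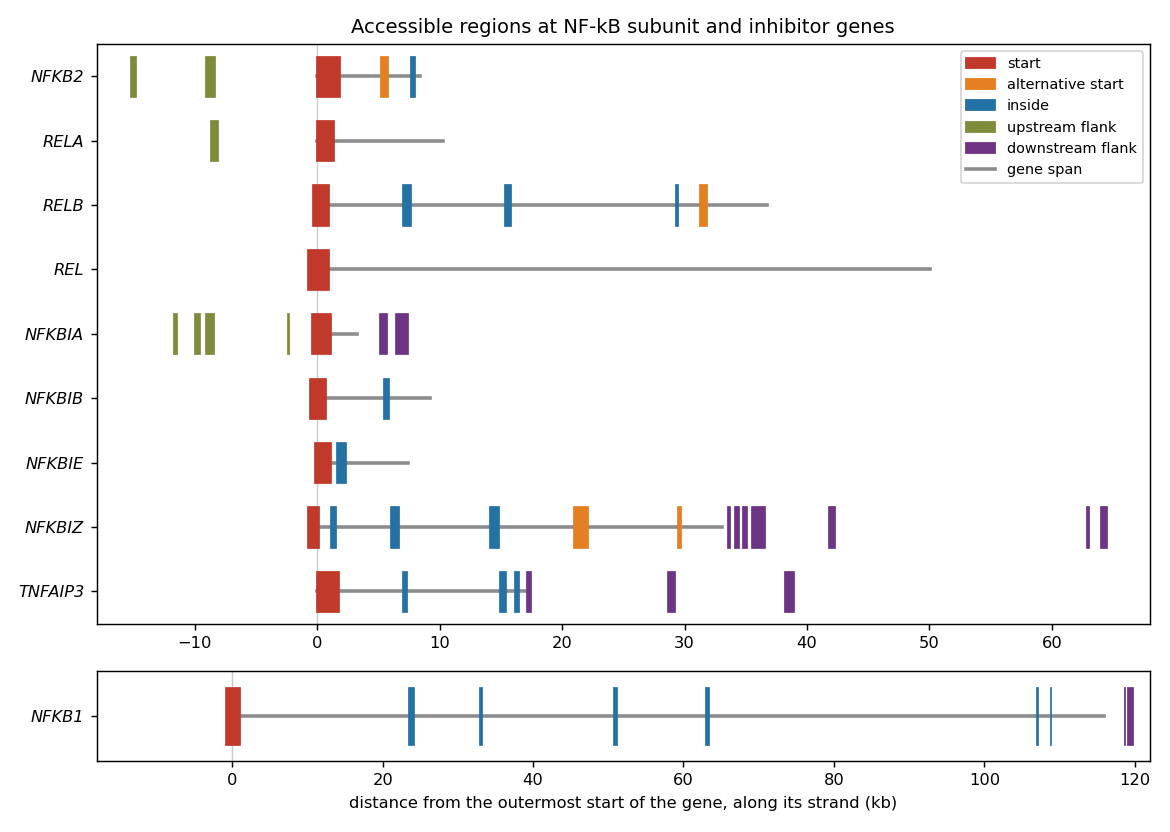
Peaks of the 10 members by distance in kb from the outermost start, along the strand of each gene, with the gene span as a grey line. Colours give the position of a peak, and NFKB1 has its own scale. REL has a start peak alone, while NFKBIZ and TNFAIP3 run on into groups of peaks past their ends.

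NFKB1 encodes the precursor that is processed to the p50 subunit of the classical heterodimer. Its span (ENSG00000109320, chromosome 4, 102501359 to 102617302, plus strand) held 7 peaks, and 2 more lay just past its end. The start peak, 102500467 to 102502431, was centred 90 bases past the RefSeq start and also reached into the antisense gene NFKB1-AS1. Its upstream stretch is shown because it carries a match to the kappa-B consensus, in capitals, at positions -49 to -40 from the start (RefSeq, GRCh38.p14, chr4:102501109-102501328, plus strand).
NFKB1: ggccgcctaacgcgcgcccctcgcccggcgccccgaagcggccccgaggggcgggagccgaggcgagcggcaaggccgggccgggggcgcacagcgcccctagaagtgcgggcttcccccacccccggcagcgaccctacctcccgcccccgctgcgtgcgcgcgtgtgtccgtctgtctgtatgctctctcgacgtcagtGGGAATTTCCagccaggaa
Inside the gene, the peak farthest upstream (845 bases, centred 23738 bases from the start) was annotated as 5' UTR. The 5 others were intron peaks of 195 to 547 bases, with 1 in intron 4 and 2 each in introns 5 and 19 of 23. The peaks past the end, 228 and 780 bases long, lay 2578 and 3069 bases from it, over the uncharacterized locus LOC105377347. The 780-base peak covered a start of that locus. At 116 kb NFKB1 is the longest member, and its 0.604 peaks per 10 kb were fewer than in any other member but REL.

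NFKB2 encodes the precursor of p52, the subunit of the non-canonical pathway. It is the member with the longest start peak and the densest span, 3 peaks over 8.42 kb or 3.56 per 10 kb (ENSG00000077150, chromosome 10, 102394110 to 102402529, plus strand). The start peak, 102393981 to 102395986, began 129 bases before the outermost start and ran 1876 bases into the gene, over all 3 of its RefSeq starts, at 102394110, 102394578 and 102395705. A peak of 627 bases lay near another annotated transcript start (list distance -683 bases), and a peak of 459 bases lay near the end of the gene. Upstream, the identifier also covers a peak of 834 bases at 8331 bases from the gene and a peak of 497 bases at 14779 bases, which lies in an exon of the neighbour GBF1.

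RELA encodes p65, the transactivating partner of p50. It had few peaks, a start peak of 1452 bases and a peak of 599 bases 8143 bases upstream (ENSG00000173039, chromosome 11, 65653601 to 65663857, minus strand). The start peak, 65662480 to 65663931, reached 74 bases beyond the outermost start and 1377 bases into the gene, and covered both RefSeq starts as well as the start of the divergent transcript RELA-DT. Past the 3' end, a peak of 1849 bases at 65651664 to 65653512 lay within 3000 bases, but the list ties it to another gene.

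RELB encodes the partner of p52. All 5 of its peaks overlapped its span (ENSG00000104856, chromosome 19, 45001464 to 45038192, plus strand). The start peak of 1323 bases was followed by peaks of 752 bases (class 3' UTR), 581 bases (intron 4 of 11) and 244 bases (promoter class, list distance -1506 bases). A peak of 648 bases, 45032620 to 45033267, covered an annotated transcript start near the end of the gene, centred 31480 bases from the main start.

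REL encodes c-Rel, the subunit best known from lymphocytes. Its span of 50 kb held a single peak, the start peak of 1805 bases at 60880769 to 60882573 (chromosome 2, 60881574 to 60931612, plus strand). That peak reached 805 bases before and 999 bases past the start, and also covered the start of the divergent transcript REL-DT, to which the list assigns it. The list assigns no row to REL itself, so the gene is described here through the overlap alone. A further peak of 639 bases began 177 bases past the RefSeq end and was assigned to another identifier. In its column of flanking genes the list names REL (ENSG00000162924) at a distance of 0 bases for both of these peaks. The REL upstream stretch is shown because it holds a kappa-B match, in capitals, that reads on both strands (RefSeq, GRCh38.p14, chr2:60881324-60881573, plus strand).
REL: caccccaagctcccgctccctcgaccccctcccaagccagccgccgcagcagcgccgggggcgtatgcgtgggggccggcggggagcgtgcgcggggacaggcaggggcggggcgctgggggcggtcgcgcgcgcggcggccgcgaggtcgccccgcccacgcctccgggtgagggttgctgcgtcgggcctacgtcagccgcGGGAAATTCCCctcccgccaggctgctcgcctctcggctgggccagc

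NFKBIA encodes I-kappa-B alpha, the inhibitor that is rapidly resynthesized after NF-kB activation. The gene is short, 3.24 kb, and only its start peak lay over it (ENSG00000100906, chromosome 14, 35401513 to 35404749, minus strand). The start peak, 35403638 to 35405239, covered the first 1111 bases of the gene and 490 bases upstream. The other 6 of its 7 peaks flanked the gene. Downstream lay peaks of 645 and 1090 bases, at 1828 and 3105 bases from the end. Upstream lay peaks of 142, 722, 484 and 345 bases, at 2318, 8415, 9543 and 11436 bases from the start. The 1090-base peak is the longest flanking peak but 1 among the members, after the 1173-base peak of NFKBIZ. The NFKBIA promoter is printed as the textbook case of NF-kB feedback, with the consensus match in capitals (RefSeq, GRCh38.p14, chr14:35404750-35404999, minus strand, given 5' to 3' along the gene).
NFKBIA: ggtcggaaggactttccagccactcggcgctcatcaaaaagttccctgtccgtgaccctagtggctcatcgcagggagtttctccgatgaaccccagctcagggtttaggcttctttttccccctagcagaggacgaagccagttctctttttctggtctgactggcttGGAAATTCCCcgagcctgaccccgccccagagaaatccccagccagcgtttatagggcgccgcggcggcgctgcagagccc

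NFKBIB and NFKBIE encode I-kappa-B beta and epsilon, which bind classical dimers with slower kinetics. Each had 2 peaks. At NFKBIB (ENSG00000104825, chromosome 19, 38899666 to 38908889, plus strand) the start peak of 1389 bases, 38899012 to 38900400, also covered the start of SIRT2, a deacetylase gene on the other strand, and the list assigns it to SIRT2. The other peak, 519 bases in class 5' UTR, lay 5609 bases into NFKBIB. At NFKBIE (ENSG00000146232, chromosome 6, 44258166 to 44265551, minus strand) the start peak of 1388 bases was followed by a peak of 821 bases centred 1911 bases into the gene. Which of the genes that share a start peak it marks was not tested. The start peaks of 3 members, RELA, REL and NFKBIB, covered a start of another gene among the RefSeq promoter starts. Starts that this set lacks were not checked.

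NFKBIZ encodes I-kappa-B zeta, an atypical nuclear member of the family that acts as a coactivator for a subset of NF-kB targets. With its flanks it had 13 peaks (ENSG00000144802, chromosome 3, 101827990 to 101861022, plus strand), the most of the 10 genes. By overlap of the span NFKBIZ had 6 and NFKB1 had 7. It was also the member whose outermost start had the shortest peak, 909 bases, which lay mostly upstream of the start and overlapped NXPE3. The peak at its inner start was longer, 1244 bases at 101848891 to 101850134, over the transcript start at 101849514. A peak of 360 bases lay 136 bases past a further annotated start. Between the outermost and the inner start lay peaks of 506, 764 and 833 bases. The 7 flanking peaks that the list assigns to NFKBIZ all lay downstream. The first 4, of 250, 369, 426 and 1173 bases, began between 463 and 2400 bases past the end, and the others, of 531, 254 and 553 bases, at 8707, 29754 and 30892 bases. The stretch before the outermost NFKBIZ start is printed for its consensus match, in capitals, which stands farther from the start than in NFKB1, REL and NFKBIA (RefSeq, GRCh38.p14, chr3:101827740-101827989, plus strand).
NFKBIZ: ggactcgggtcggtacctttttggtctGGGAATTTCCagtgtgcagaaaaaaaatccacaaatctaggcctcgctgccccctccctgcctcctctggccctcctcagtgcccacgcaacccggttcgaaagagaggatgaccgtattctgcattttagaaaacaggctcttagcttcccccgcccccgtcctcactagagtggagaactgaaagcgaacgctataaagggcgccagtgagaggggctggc

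TNFAIP3 encodes a ubiquitin-editing enzyme that shuts off signalling upstream of the I-kappa-B kinase. It had 7 peaks, of which 4 overlapped its span (ENSG00000118503, chromosome 6, 137866349 to 137883312, plus strand). The start peak of 1898 bases, 137866260 to 137868157, covered the outermost start and the RefSeq start of the promoter table at 137867259, and overlapped the noncoding gene WAKMAR2. Inside the gene lay a peak of 426 bases (promoter class, 2086 bases past the start the list names) and peaks of 575 and 438 bases annotated to the 3' UTR. Downstream, peaks of 386, 638 and 849 bases lay 111, 11641 and 21139 bases past the end. No peak upstream of the gene carried the TNFAIP3 identifier. Flanking peaks enter only where the list assigns them to the member. Within 50 kb of the TNFAIP3 span lay 19 peaks, counting those over it.

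Longer genes can hold more peaks, so each member was read beside protein-coding genes of its length class. Of 3429 genes of 20 to 40 kb the median held 3 peaks (quartiles 1 and 4), and NFKBIZ held 6 and RELB 5. TNFAIP3 held 4, against a median of 2 (1 and 3) for 10 to 20 kb, and NFKB2 held 3, against 1 (1 and 2) for 5 to 10 kb. These 4 genes stood above the upper quartile of their class. NFKB1 held 7, which is the median for 80 to 160 kb. REL, with 1, stood below the lower quartile of 40 to 80 kb, where the median was 4 (2 and 7). That place rests on the RefSeq end of REL, since with the peak 177 bases past it the gene would hold 2, the lower quartile itself. RELA, at 10.3 kb, held 1, against a median of 2 (1 and 3) for 10 to 20 kb. It lies close to the edge of that class, and the median for 5 to 10 kb was 1. NFKBIA held 1, the median of genes up to 5 kb, and NFKBIB and NFKBIE held 2 each, the upper quartile for 5 to 10 kb. Within 50 kb on either side of the span the members had 11 (REL) to 23 (NFKB2) peaks, with a median of 18, against a median of 13 over all protein-coding genes (quartiles 8 and 18). MDA-MB-231 is aneuploid, and DNA copies per gene were not analysed here.

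**Figure D3:**
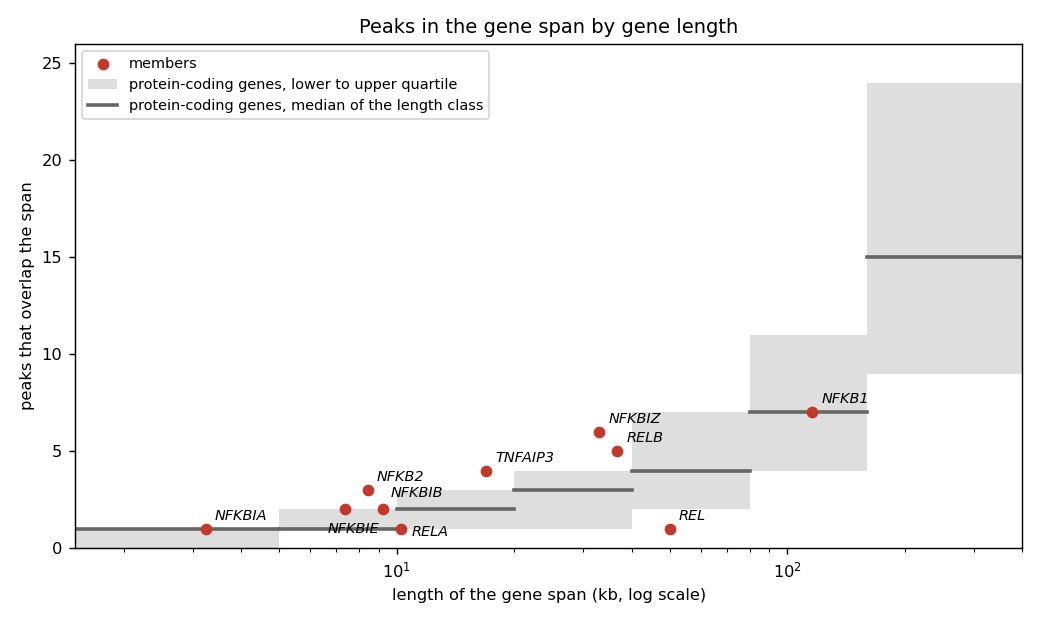
Number of peaks that overlap the gene span against span length in kb (log scale) for the 10 members (red points) and for protein-coding genes in 7 length classes (dark line, median; grey box, lower to upper quartile). NFKBIZ (6), RELB (5), TNFAIP3 (4) and NFKB2 (3) lie above the box of their class and REL (1), counted to its RefSeq end, below it.

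The promoters were then searched for the degenerate 10-base kappa-B consensus, on both strands, from 250 bases before to 50 bases after each RefSeq start. The consensus is GGGRNNYYCC, where R is A or G, Y is C or T and N is any base. The table holds such windows for 8 of the 10 members, 14 windows in all, and a peak of the list overlapped each of the 14, against 66.6% of the windows of protein-coding genes. RELB and NFKBIE were not searched. A match was found in 7 of the 8 genes, against 15.9% of 15812 protein-coding genes. Counted by window, 9 of 14 member windows (64.3%) held a match, against 12.7% of 22132 windows. Among genes whose windows a peak overlaps, 16.4% had a match, and all windows of the members are among these. Members' windows were GC-rich (median 68.2%, against 62.3% over all windows), and of genes with peak-covered windows of at least 60% GC, 17.8% had a match. Of the 8 genes searched, RELA was without a match, in either of its windows. Several members are themselves known targets of NF-kB, so their count is not independent evidence. A match is a sequence description and does not show that a factor is bound.

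The matches of 5 genes, NFKB1, REL, NFKBIA, NFKBIB and NFKBIZ, held the same 10 bases, read on one strand or the other. In all, 28 protein-coding genes (0.177%) carried these 10 bases in a promoter window. They are set out below with 30 bases each to show the shared bases, with the whole match in capitals, along the strand of each gene.
NFKB1, positions -49 to -40 from the start, chr4:102501300-102501329: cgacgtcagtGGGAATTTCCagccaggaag
REL, positions -47 to -37 from the start, chr2:60881518-60881547: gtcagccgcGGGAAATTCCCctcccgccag
NFKBIA, positions -81 to -72 from the start, chr14:35404811-35404840: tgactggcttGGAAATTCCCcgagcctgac
NFKBIB, positions -28 to -18 from its second start, chr19:38899932-38899961: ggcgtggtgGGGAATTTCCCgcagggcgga
NFKBIZ, positions -223 to -214 from its first start, chr3:101827757-101827786: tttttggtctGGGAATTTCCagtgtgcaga
In REL and NFKBIB the match spans 11 bases, because 2 matches on opposite strands overlap by all but 1 base. In NFKBIA the match to the consensus is on the strand opposite to the gene.

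NFKB2 and TNFAIP3 held several matches each. NFKB2 had 4 matching sites in its 3 windows: 2 before its second and 2 before its last start, and 0 at its outermost start. TNFAIP3 had a pair of sites in its single window, between positions -67 and -46 from its RefSeq start, both on the strand opposite to the gene. A further 10-base match was common to these 2 genes and absent from the windows of the other members, and 38 protein-coding genes carried it (0.240%). Sites of both genes are shown because they lack the bases shared by the other 5.
NFKB2, positions -107 to -97 from the second start, chr10:102394462-102394491: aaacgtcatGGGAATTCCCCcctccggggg
NFKB2, positions -21 to -12 from its last start, chr10:102395674-102395703: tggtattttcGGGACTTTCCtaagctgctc
TNFAIP3, positions -67 to -58 from the start, chr6:137867182-137867211: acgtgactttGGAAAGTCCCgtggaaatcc
TNFAIP3, positions -55 to -46 from the start, chr6:137867194-137867223: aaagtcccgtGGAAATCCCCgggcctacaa
The TNFAIP3 sites fell 12 bases or less from the middle of its start peak of 1898 bases. The NFKB2 sites lay 479 to 705 bases from the middle of its start peak. Of the 13 sites in the 7 genes, 12 lay inside the start peak, and the other, before the inner start of NFKBIZ, lay inside the peak there.

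**Figure D4:**
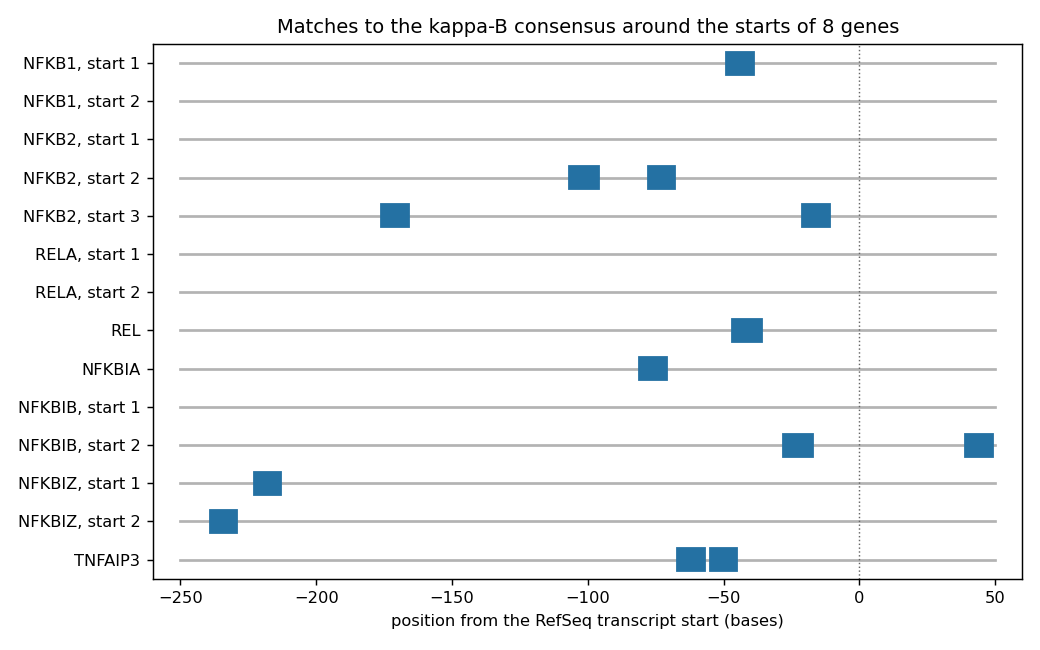
Position in bases, from the RefSeq transcript start, of matches to the kappa-B consensus (blue boxes) in 14 promoter windows of 8 members (grey lines). Both windows of RELA are empty, and the sites of NFKB1, REL, NFKBIA and TNFAIP3 lie no farther upstream than position -81.

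The rest of the pathway was read through 6 lists of 94 genes. Of the 93 with a determined strand, 84 (90.3%) had a start peak, beside the 74.1% of all protein-coding genes. By list, the median start peak ran from 1047 bases (receptors) to 1360 bases (other I-kappa-B genes). Over all genes with a start peak the median was 1257 bases. All 11 receptors had one, the longest at IL1RAP (1780 bases), an interleukin-1 receptor subunit, and at the Toll-like receptors TLR3 (1594 bases) and TLR2 (1514 bases). Of the upstream kinases and adaptors 24 of 26 had one, led by IRAK1 (2487 bases), IKBKE (2252 bases) and TRADD (2225 bases). The 3 subunits of the I-kappa-B kinase, IKBKG, IKBKB and CHUK, had start peaks of 1935, 1464 and 1164 bases. TAB2 and CARD10 had none at the outermost start but 14 and 5 peaks in the gene. Among ubiquitin enzymes and other negative regulators 19 of 20 had one. The longest were at RBCK1 (1951 bases), a subunit of the linear ubiquitin ligase, FBXW11 (1882 bases) and PDLIM2 (1800 bases). TNIP3 had none at the outermost start but 8 peaks in the gene. Of the other I-kappa-B genes, BCL3 (1615 bases) and NFKBIL1 (1105 bases) had a start peak. NFKBID had none within 1000 bases but 1 peak within 3000 bases of its start.

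Known targets were read by kind. All 14 cell-intrinsic targets had a start peak, led by TNFAIP2 (2823 bases), GADD45B (2287 bases) and CFLAR (1705 bases), an inhibitor of caspase activation. Of the secreted and adhesion targets 14 of 19 had one (73.7%), close to the share of all protein-coding genes. Those with the longest were ICAM1 (2428 bases), CSF3 (1988 bases) and the chemokine CXCL1 (1616 bases), and IL6 had one of 1366 bases. TNF, LIF, CCL20, VCAM1 and the endothelial selectin SELE had none, and CCL2 could not be placed on a strand. Of these, TNF had 1 peak within 3000 bases of its start. The median start peak was 1161 bases for the cell-intrinsic targets and 1262 bases for the secreted and adhesion targets. The split between these lists was not tested.

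Kappa-B matches were counted over the same lists, with 2 of 3 among the other I-kappa-B genes. Of the secreted and adhesion targets 9 of 15 genes with windows had a match, of the cell-intrinsic targets 3 of 10 and of the ubiquitin enzymes and negative regulators 5 of 17 (29.4%). Upstream kinases and adaptors had 4 of 23 (17.4%) and receptors 0 of 9, near or under the 15.9% of all protein-coding genes. The members' count beside these is 7 of 8. No difference between lists was tested. The target genes are textbook targets, some of them known for these very sites, so their share is not independent evidence. The same holds for the members' count, as several members are themselves targets of NF-kB.

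**Figure D5:**
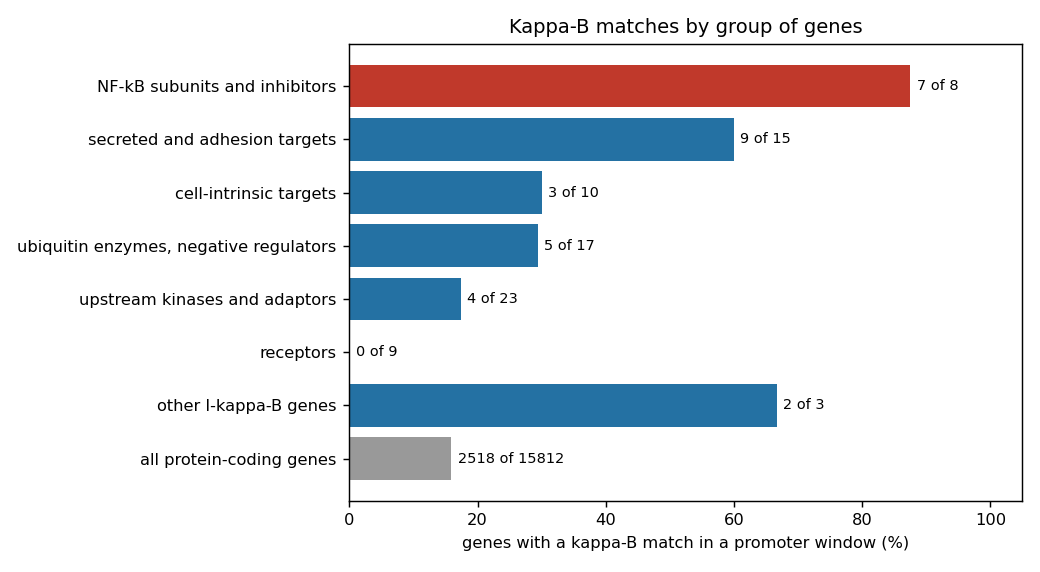
Percentage of genes with a kappa-B match in at least 1 promoter window, with counts, for the members (red), the 6 pathway lists (blue) and all protein-coding genes (grey). The members stand at 7 of 8 and receptors at 0 of 9.

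Markers of other cells were read because REL and RELB are best known from leukocytes. Of the leukocyte genes PTPRC, CD3E, CD79A and SPI1, 0 of 4 had a start peak (2 of 4 with the window of 3000 bases), and of the endothelial genes KDR had one and CDH5 and TIE1 had none. PECAM1 could not be placed on a strand. The breast cancer line markers EGFR, CD44, VIM, KRT8 and KRT18 all had one (5 of 5), with KRT8 and KRT18 sharing the same peak. Over all protein-coding genes the share was 74.1% within 1000 bases and 82.1% within 3000 bases. The marker lists are short, and cell identity was not tested.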

How the data were processed

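The data are 10 ATAC-seq libraries, 5 of ARID1A knockout and 5 of control MDA-MB-231 cells, grouped by the genotype label. The submitters' processing notes name Bowtie2 2.3.5.1, MACS2 2.2.6 and the build hg38. Pooling of libraries, thresholds, joining of peaks, removal of duplicates, any Tn5 shift and the gene annotation's release have no statement in the sources used here. The authors deposited 1 list of 161934 peaks with 17 columns of positions, lengths, classes and nearest transcripts and 0 columns of values per library, so the depth is unknown and nothing was tested between genotypes. The comparison of knockout and control planned for values per library was not run.

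Members and lists were chosen with earlier results of these data known. Ensembl identifiers were paired with RefSeq genes (GRCh38.p14) by position, where their spans shared 0.5 or more of their union, which paired 9 of the 10 members. Strand came from RefSeq promoters for 15813 genes and from the list's transcripts for 2955. Both gave the same strand in 99.5% of 12107 genes, and 1206 genes were undetermined. A start peak lies within 1000 bases of the outermost 5' boundary. Promoter sequences are from RefSeq, 250 bases before to 50 after each start. Overlapping motif matches count as 1 site. The genes named are the 10 members, in each pathway list the 3 longest start peaks and up to 5 genes lacking one, and neighbours whose start a member's peak covers. The I-kappa-B kinase subunits, IL6, the markers and other genes that overlap a peak were named besides. The peak lookup and motif search were checked on simulated intervals and sequences. Computation used Python 3.11.15, pandas 2.3.3 and scipy 1.17.1.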

Additional observations from a re-analysis of the deposited data

How the results depend on the processing

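No paired analysis was possible because no column holds a library's own values. Leaving out a library was impossible likewise, and what depth limits cannot be stated. All 10 members kept a start peak when shorter peaks than the median were dropped, and 9 had a peak at a transcript start the list names for them. The exception was REL, to which the list assigns no row. A window of 3000 bases also gave 10, and could lose none by construction. The members' 53 peaks became 32 when only overlap of the span counted, since flanking peaks drop out by construction, and 31 with peaks of at least the median length. The identifier alone gave 51 and spans widened by 3000 bases gave 49. The promoter share of 37.7% (30.4% of all peaks) was 26.4% within 1000 bases (19.8% of all peaks) and 45.2% among peaks of at least the median length (37.2% of all such peaks). Their median length of 599 bases was 581 and 700 bases by identifier and by overlap alone. Genes with a kappa-B match, 7 of 8, were 8 with 1 mismatch allowed outside the fixed ends GGG and CC. With that setting 45.8% of protein-coding genes also had a match. The members with a match were 7 in the 250 bases before the start. They were also 7 in peak-covered windows, which removed none of the members' windows and so could not change the count. Both were chosen after seeing the data. Member by member, 24 of 40 counts stayed within 1.5 times and 16 did not. Pathway counts stayed within that range in each alternative.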

Other observations

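The 10 bases common to NFKB1, REL, NFKBIA, NFKBIB and NFKBIZ were carried in a promoter window by 23 other protein-coding genes, and a peak overlapped the window in 20 of these. Over all protein-coding genes with windows, 11287 of 15812 had a window under a peak. The 23 include neutrophil-attracting chemokines of the cluster on chromosome 4, CXCL1, CXCL2, CXCL3, CXCL5 and CXCL6, of which all but CXCL6 had a peak over the window. They also include TNFRSF9, a costimulatory receptor of the tumour necrosis factor family, OPTN, which encodes the ubiquitin-binding protein optineurin, the antiviral gene OAS3, the collagen gene COL7A1 and WNT10A. The windows of GFRA1, MIA and CXCL6 were those without a peak. These genes were named after the matches had been seen, and nothing was tested.

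Other promoter elements were spread differently over the 8 members. The GC box, GGGCGG on either strand, was found in all 8, against 64.2% of protein-coding genes, 75.5% of those with peak-covered windows and 85.6% of those with peak-covered windows of at least 60% GC. The TATA box, TATAAA on either strand, was found in NFKBIA and NFKBIZ, against 12.4% of protein-coding genes, 6.50% of those with peak-covered windows and 3.05% of those with such windows of at least 60% GC. The NFKBIZ window with the TATA box had 55.7% GC, so only NFKBIA (62.0%) would count in the last set. CCAAT was found in 4 of 8, against 42.1%, 40.5% and 34.8% of the same sets. The RELA window with CCAAT had 51.3% GC, so RELA would not count in the last set. The AP-1 element TGANTCA was found in NFKBIB alone, against 8.04%, 6.60% and 4.02%. Matches that overlap one another or a kappa-B match were counted.

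Within 3000 bases of the spans, 9 peaks were assigned to neighbours and overlap no member. The longest peak, with a length of 1849 bases, lay past the end of RELA. The next, with a length of 1756 bases, lay past the end of NFKBIE, and 4 of the 9 lay past the end of NFKBIB.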
